A study of Mus musculus with 6 samples.

Results

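Genes of the mouse major histocompatibility complex (MHC, named H2 in mice) and their helpers were followed in hearts of C57BL/6 mice aged 6 to 8 weeks. RNA from 3 control hearts was compared with RNA from 3 hearts of mice given angiotensin II (Ang II), a peptide hormone that constricts vessels and is used in mice to raise blood pressure. The labels give neither dose nor duration of Ang II, nor how control mice were treated. The members were all protein-coding genes whose name starts with H2-, together with Cd74, Ciita, Nlrc5, B2m, Tap1, Tap2 and Tapbp. That rule took 44 of 55401 genes, of which 31 belong to class I and its partners and 12 to class II and its partners. The remaining member, H2-Ke6, lies in the complex but encodes a steroid dehydrogenase and has no part in antigen presentation.

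MHC class I molecules display peptides from inside the cell to CD8 T cells and are made by nearly all nucleated cells. A heavy chain pairs with the light chain B2m, and the peptide is pumped into the endoplasmic reticulum by the transporter Tap1-Tap2 and loaded with the help of Tapbp (tapasin). Class II molecules display peptides from endosomes to CD4 T cells and are made mainly by macrophages, dendritic cells and B cells, which in heart form a small resident population. The invariant chain Cd74 guides class II molecules to endosomes, H2-DM exchanges its remnant for peptide and H2-O restrains H2-DM. Ciita and Nlrc5 are related co-activators that carry no DNA-binding domain of their own. They act through proteins bound at the X and Y boxes of class II and class I promoters respectively, and interferon-γ induces both.

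The sequences below show promoters of both classes, with the layout of X and Y box cores in class II. H2-Aa and H2-Eb1 stand first because both are described in the results that follow. All sequences are taken from RefSeq (GRCm38.p6) and run 5′ to 3′ on the gene's own strand, ending before its start site. In the first 4, capitals mark GCAAC, the core of the X box, and ATTGG, the core of the Y box. H2-Eb2 and H2-Ob are shown because they carry the same pair and yet were hardly expressed.
H2-Aa, chr17:34287842-34287929, minus strand: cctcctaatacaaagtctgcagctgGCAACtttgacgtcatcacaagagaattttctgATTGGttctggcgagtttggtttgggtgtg
H2-Eb1, chr17:34305751-34305837, plus strand: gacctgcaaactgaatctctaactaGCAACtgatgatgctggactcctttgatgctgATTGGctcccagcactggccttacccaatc
H2-Eb2, chr17:34325518-34325604, plus strand: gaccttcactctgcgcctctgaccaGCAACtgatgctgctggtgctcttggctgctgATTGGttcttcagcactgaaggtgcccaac
H2-Ob, chr17:34238793-34238877, plus strand: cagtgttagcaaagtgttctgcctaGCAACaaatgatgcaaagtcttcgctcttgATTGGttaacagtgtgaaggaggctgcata
Class I promoters are shown by H2-K1, with ATTGG in capitals, and by B2m, with ATTGG and an interferon-response core (TTTC repeated after a gap of 2 bases, here on the opposite strand) in capitals.
H2-K1, chr17:34000348-34000388, minus strand: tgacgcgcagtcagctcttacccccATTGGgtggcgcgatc
B2m, chr2:122147523-122147663, plus strand: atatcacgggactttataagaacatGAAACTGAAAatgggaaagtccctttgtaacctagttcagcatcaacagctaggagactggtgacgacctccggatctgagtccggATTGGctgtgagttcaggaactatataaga

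In H2-Aa the ATTGG core began 33 bases after the GCAAC core, and in H2-Eb1 32 bases after it. The RefSeq promoter table matched 28 of the member genes, some with several start sites, and each was searched over the 250 bases before its start on both strands. H2-Ab1, H2-Ea, Cd74, Ciita, Nlrc5 and Tap2 were among the members without a match, so their promoters were not searched. GCAAC followed by ATTGG, with 20 to 60 bases from the start of one to the start of the other, stood in 5 of 9 class II promoters (H2-Aa, H2-Eb1, H2-Eb2, H2-Oa and H2-Ob), in 0 of 21 class I promoters and in 1.44% of all 32851 promoters. The class II promoters without the pair were those of H2-DMa, H2-DMb1 and H2-DMb2. ATTGG alone stood in 18 of 21 class I promoters, in 8 of 9 class II promoters and in 33.85% of all promoters. GCAAC alone stood in 3 class I promoters, 6 class II promoters and 29.88% of all. The interferon-response core stood in 3 class I promoters (B2m, H2-T22 and H2-T23), no class II promoter and 2.98% of all. Only exact matches were counted, so a promoter without a match may still hold a variant form of a box or response element. The pair contains both single cores, so these counts overlap.

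The libraries held 51202916 to 63564869 estimated counts each, of which 35.8% to 47.6% fell on mitochondrially encoded genes. Ang II replicate 1 lay apart from the others: its mean correlation with them was 0.9063 across genes on log2 CPM (counts relative to the scaled library size), against 0.9385 to 0.945 for the other 5. In that library short transcripts were relatively more abundant. Genes whose longest transcript is under 1 kb had a median log2 level 0.38 above that in Ang II replicates 2 and 3, and genes of 4 kb or more a median 0.20 below it. Values are therefore also given without this library where it moves them. The extraction text in the labels speaks of adipose tissue where all other labels say heart. Cardiomyocyte markers, led by Actc1 and Myh6, summed to 5410 to 8670 FPKM (fragments per kilobase of transcript, scaled to sequencing depth) in control hearts, and to 5710 to 10100 FPKM after Ang II.

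Class II genes H2-Eb1, H2-Aa and Ciita, and class I genes H2-K1, H2-Q4, H2-Q6, H2-M3 and Tap1, were lower in Ang II hearts at an unadjusted p under 0.05 in edgeR's quasi-likelihood test. In whole-heart RNA, fewer cells of a type and less RNA per cell cannot be told apart. None of the 8 passed the threshold, an adjusted p under 0.05 over the 16759 genes tested. Of the 44 members, 27 had enough counts to test, 12 had no count in any heart and the other 5 (H2-M5, H2-Q2, H2-Ea, H2-Eb2 and H2-Oa) had too few. By edgeR 0 of the 27 were called, where 6 of all genes tested (0.0358%) were. The 8 members lower at an unadjusted p under 0.05 compare with 3.94% of all genes tested, and 0 members were higher at that level, against 3.57% of all. Log2 changes were below 0 for 25 of 27 members and for 49.1% of all genes tested. The filter on low counts was met in every heart by 24 of the 27. H2-Q1, H2-Q10 and H2-Ob met it in some hearts only, but in hearts of both groups. A gene that meets the filter in hearts of 1 group alone is bound to differ, and none of the 27 did so. H2-Q10 and H2-Ob, though, met it in every control heart but not in every Ang II heart, so the control hearts alone would have carried them. Both are among the 25 below 0.

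On TMM-scaled CPM every Ang II heart lay below every control heart in 10 members, which was so for 9.21% of all genes tested. Every Ang II heart lay above every control heart in 0 members and in 7.97% of all genes. The 10 were H2-Eb1, H2-Aa, Cd74, Ciita, H2-K1, H2-Q4, H2-Q6, H2-M3, Tap1 and Tap2. On the deposited FPKM, a unit set beside CPM after seeing the data, it was 8 members, against 4.01% of all genes: H2-Eb1, H2-Aa, Ciita, H2-K1 and Tap1 as on CPM, with H2-Ab1, H2-D1 and, by a margin lost in rounding (5.95 FPKM on both sides), H2-T22. Cd74, H2-Q4, H2-Q6, H2-M3 and Tap2 overlapped on FPKM. With Ang II replicates 2 and 3 alone, 15 members lay below all control hearts on CPM, against 17.6% of all genes. DESeq2 on the same counts called 2 members, H2-Eb1 and Ciita, both lower; it called 0.698% of all genes lower and 1.65% in either direction. At an unadjusted p under 0.05 DESeq2 also had 8 members lower and 0 higher, against 4.66% and 4.82% of all genes, and 25 of 27 below 0, against 47.8%.

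Among class II genes, 8 of 9 tested had log2 changes below 0, with a median of -0.43, against a median of 0.01 over all genes tested. The β chain gene H2-Eb1 (ENSMUSG00000060586; GRCm38 chromosome 17, 34305867 to 34316674, plus strand) pairs in other strains with H2-Ea. It stood at 33.6, 31.4 and 34.8 CPM in control replicates 1, 2 and 3, whereas Ang II replicates 1, 2 and 3 stood at 20.6, 17.8 and 22.0 CPM. All 3 Ang II hearts were low, with no overlap and little spread within either group. Its mean was 33.3 ± 1.72 CPM in the control group and 20.1 ± 2.12 CPM in Ang II hearts (SD, n = 3), which is 39.5% lower by edgeR (a log2 change of -0.72 with SE 0.14, unadjusted p = 0.00168, adjusted p = 0.333). DESeq2 gave an adjusted p of 0.00212, and the other 14 alternative fits gave 0.0813 to 0.999. An antisense gene, Gm20513, overlaps H2-Eb1, and the labels do not say whether counting used strand.

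The classical class II pair of this strain is H2-Aa with H2-Ab1, the α and β chains of I-A. H2-Aa (ENSMUSG00000036594; chromosome 17, 34282744 to 34287823, minus strand) gave 51.7, 39.4 and 47.5 CPM in the control group and 35.6, 33.9 and 33.1 CPM in the Ang II group. The Ang II hearts lay close together, below the lowest control heart (a log2 change of -0.43 with SE 0.15, adjusted p = 0.583 by edgeR). H2-Ab1 (ENSMUSG00000073421; chromosome 17, 34257689 to 34269419, plus strand) gave 40.1, 32.2 and 36.6 CPM in the control group and 34.0, 22.3 and 22.0 CPM in the Ang II group. Here Ang II replicate 1 lay within the control range and the other 2 well below it (a log2 change of -0.48 with SE 0.21, adjusted p = 0.679 by edgeR). Without that library the H2-Ab1 change was -0.71 (SE 0.12, edgeR adjusted p = 0.0800).

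Cd74, the invariant chain (ENSMUSG00000024610), was the most abundant class II gene. It gave 83.1, 80.8 and 86.3 CPM in the control group and 80.6, 41.1 and 50.7 CPM in the Ang II group. Ang II replicate 1 stood just under the lowest control heart, and replicates 2 and 3 far under it; on FPKM it lay above control replicate 1, at 37.2 against 36.4. The log2 change was -0.54 (SE 0.26, adjusted p = 0.693 by edgeR) with all 6 hearts and -0.86 (SE 0.12, adjusted p = 0.0513) without Ang II replicate 1.

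Ciita (ENSMUSG00000022504), the class II co-activator, had few counts: 74, 78 and 84 in control and 33, 30 and 26 in Ang II hearts. On the scaled level this was 1.62, 1.17 and 1.53 CPM against 0.759, 0.427 and 0.365 CPM. All Ang II hearts were below all control hearts, at 0.517 ± 0.212 against 1.44 ± 0.237 CPM (SD, n = 3). Ciita thus had the lowest log2 change of the class II genes, -1.49 (SE 0.39, unadjusted p = 0.00696, adjusted p = 0.471 by edgeR), or 64.3% lower. DESeq2 gave an adjusted p of 0.0431, and the other 12 fits that could test it gave 0.0921 to 0.965. Its FPKM, 0.0396 to 0.15 over the 6 hearts, was under the filter of 2 of the 3 fits on FPKM. Dexi overlaps Ciita on the opposite strand.

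**Figure D1:**
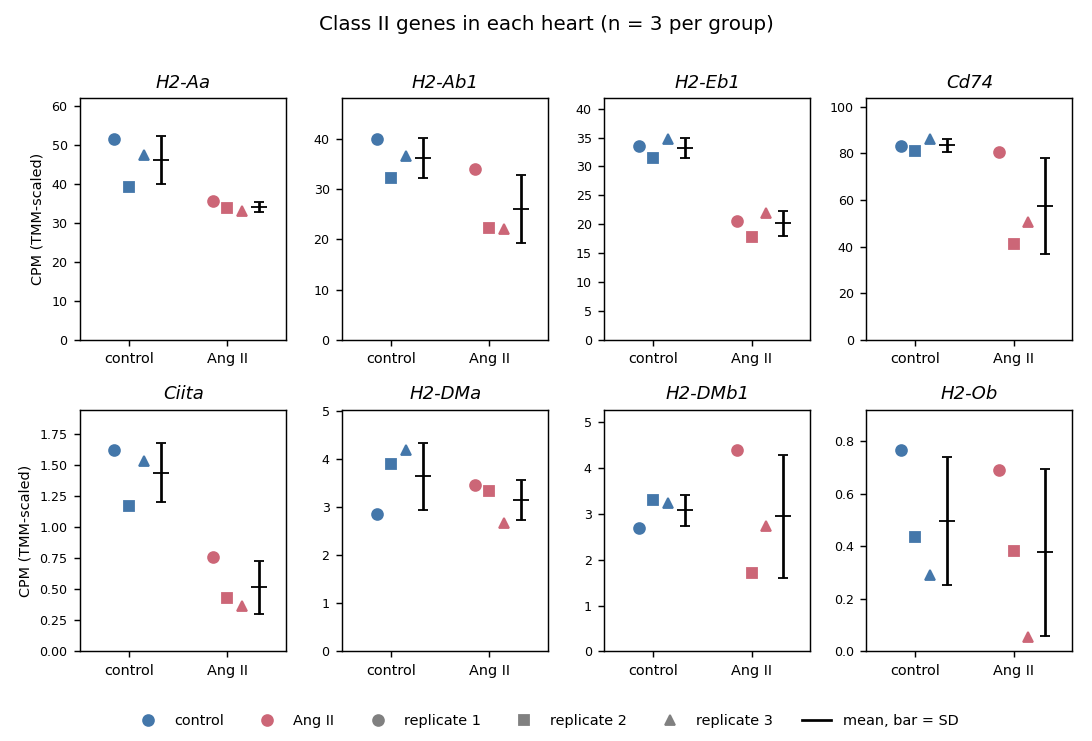
Level of 8 class II genes in each heart, in CPM scaled by the trimmed mean of M-values (TMM). Symbols are single hearts, shaped by replicate number, and the dash and bar to their right give mean and SD (n = 3). H2-Eb1, H2-Aa, Cd74 and Ciita show no overlap between groups; Cd74 and H2-Ab1 are near control level in Ang II replicate 1.

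The peptide-exchange genes had log2 changes nearer 0, and that difference was not tested. H2-DMa, the α chain of H2-DM, stood at 2.85 to 4.18 CPM in the control group and 2.66 to 3.45 CPM in the Ang II group (a log2 change of -0.21 with SE 0.23). Brd2 overlaps H2-DMa on the opposite strand and CR974462.3 on the same strand. Its β chain genes H2-DMb1 and H2-DMb2 gave log2 changes of -0.07 (SE 0.35) and 0.16 (SE 0.66), and 27.23% of the 50-base stretches of the H2-DMb1 transcript also occur in H2-DMb2, so reads can be split between them. H2-Ob, a chain of H2-O that is typical of B cells, lay under 0.8 CPM in every heart and its partner H2-Oa under 0.3 CPM. In all 4 tested genes of H2-DM and H2-O the groups overlapped, and the median log2 change was -0.14. Without Ang II replicate 1, 5 genes of H2-DM and H2-O were tested and all 5 were below 0, from -1.16 to -0.28. Their median was then -0.60, against -0.59 over the 4 classical class II genes tested in that fit, so they were no longer nearer 0.

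Class II genes with next to no signal were H2-Eb2, with 4 counts in control replicate 3 and 0 elsewhere, and H2-Ea. C57BL/6 mice carry a deletion that silences H2-Ea, so that no I-E molecule is made. Its counts were 8, 6 and 0 in the control group and 40, 11 and 25 in the Ang II group. Scaled to library size the groups overlapped, at 0 to 0.175 CPM and 0.156 to 0.92 CPM, and the gene did not pass the count filter. On FPKM every Ang II heart lay above every control heart, at 0.15 to 0.681 against 0 to 0.116. Limma on log2(FPKM + 0.5) with no filter gave it a log2 change of 0.61 (unadjusted p = 0.0458, adjusted p = 0.871). With a total of at least 10 counts as the only filter, its log2 change was 2.41 (SE 1.24, adjusted p = 0.718 by edgeR), and the other 7 fits that could test it gave adjusted p-values of 0.658 to 0.967.

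Class I genes had log2 changes below 0 in all 17 members tested, with a median of -0.35; Tapbp turned positive with no scaling factors. Without control replicate 1, 13 of the 17 were below 0, and Tapbp, B2m, H2-T23 and Nlrc5 were not. The spread was wide, from -0.05 for Tapbp to -1.74 for H2-Q10. The classical heavy chain genes are H2-K1 and H2-D1. H2-K1 (ENSMUSG00000061232; chromosome 17, 33996017 to 34000347, minus strand) gave 157, 93.7 and 86.1 CPM in the control group and 67.6, 48.8 and 77.2 CPM in the Ang II group. The groups did not overlap, though control replicate 1 stood far above the other controls (a log2 change of -0.80 with SE 0.29, adjusted p = 0.599 by edgeR). Without control replicate 1 the change was -0.48.
H2-D1 (ENSMUSG00000073411; chromosome 17, 35262730 to 35267499, plus strand) gave 253, 203 and 225 CPM in the control group and 217, 171 and 170 CPM in the Ang II group. Ang II replicate 1 lay among the controls (a log2 change of -0.29 with SE 0.17, adjusted p = 0.737 by edgeR). Without it the H2-D1 change was -0.41 (SE 0.11, adjusted p = 0.187).

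B2m (ENSMUSG00000060802; chromosome 2, 122147686 to 122153083, plus strand), the light chain of all these molecules, had the highest FPKM of the members. It gave 273, 209 and 231 CPM in the control group and 313, 166 and 184 CPM in the Ang II group. Ang II replicate 1 was the highest of the 6 hearts and the other 2 Ang II hearts the lowest, so the log2 change was near 0 (-0.10, SE 0.27, adjusted p = 0.936 by edgeR). Without that library it was -0.44 (SE 0.13, adjusted p = 0.218). The longest B2m transcript, at 860 bases, is the shortest among the 12 members whose length was compared with the gap between Ang II replicate 1 and the other Ang II hearts. That gap was 0.84 on the log2 scale for B2m and 0.81 for Cd74 (1410 bases), but 0.05 for H2-Eb1 (1669 bases) and -0.40 for Tap2 (3442 bases). It did not follow length throughout: the longest of the 12, Ciita (6007 bases) and Nlrc5 (7578 bases), had gaps of 0.49 and 0.10, and Tapbp (2898 bases) had -3.13. The part of transcript length in the MHC values was not tested. For H2-Ab1, Cd74, H2-D1 and B2m the fit without Ang II replicate 1 gave the lowest adjusted p of 15 alternative fits, and the highest was 0.999 for each.

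Of the non-classical class I genes, 10 of 24 could be tested and 12 had no count in any heart, among them all 6 listed under the name H2-M10. H2-Q4 and H2-Q6, of the Qa group, had every Ang II heart below every control heart on CPM but not on FPKM, where H2-Q4 had 14.6 in Ang II replicate 2 against 14.1 in control replicate 1, and H2-Q6 9.5 in Ang II replicate 3 against 9.44 in control replicate 1. H2-Q4 gave 49.6, 45.6 and 41.6 against 30.2, 37.2 and 35.2 CPM (a log2 change of -0.42 with SE 0.15, adjusted p = 0.595 by edgeR). H2-Q6 gave 26.7, 25.4 and 28.3 against 22.7, 18.6 and 19.2 CPM (a log2 change of -0.41 with SE 0.14, adjusted p = 0.584). H2-M3, which presents formylated peptides of bacterial and mitochondrial origin, gave 4.05, 4.46 and 3.51 against 2.30, 2.93 and 3.16 CPM (a log2 change of -0.52 with SE 0.22, adjusted p = 0.662). These 3 genes are given in full because their unadjusted p was under 0.05 by edgeR, so their changes do not stand for the group. All 10 non-classical class I genes tested ran from -1.74 to -0.16, with a median of -0.41. The 3 classical class II genes tested ran from -0.72 to -0.43. H2-T23 (Qa-1), a ligand of receptors on natural killer cells, overlapped between groups, at 23.5 to 34.2 and 22.6 to 25.8 CPM. H2-T22 and H2-T10, ligands of γδ T cell receptors, also overlapped, with log2 changes of -0.29 and -0.34. H2-Q10, made mainly by liver, had 0 to 145 counts, with the highest in control replicate 1 and 0 in Ang II replicate 1.

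Class I heavy chain genes resemble one another, which limits how well single members can be told apart. Of the 50-base stretches in the longest coding transcript, 44.74% for H2-T22, 42.95% for H2-T10, 34.94% for H2-Q7, 31.97% for H2-Q6 and 24.25% for H2-Q4 also occur in transcripts of other genes in GENCODE M21. The shares were lower for H2-D1 (14.32%), H2-K1 (8.79%) and H2-M3 (0.58%). They were 0 for B2m, Cd74, Ciita, H2-Aa, H2-Ab1 and H2-Eb1. Values of the Q and T genes are uncertain for that reason. Other genes also overlap B2m (Patl2), Tap2 (Gm15821 and Gm20496), Nlrc5 (9330175E14Rik) and H2-Q4 (Gm11131) on the opposite strand. The sum over the 12 tested heavy chain genes was 158, 172 and 162 FPKM in the control hearts and 118, 128 and 140 FPKM in the Ang II hearts. All Ang II sums lay below all control sums. Of these sums H2-K1 and H2-D1 gave 112, 117 and 110 FPKM in control and 82.9, 84.4 and 95.4 FPKM in Ang II hearts. FPKM is divided by gene length, so the sum restores split reads only in part and does not settle the Q and T genes.

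Peptide supply to class I was read from the transporter and tapasin. Tap1 (ENSMUSG00000037321; chromosome 17, 34187553 to 34197225, plus strand) gave 11, 7.84 and 15.3 CPM in the control group and 4.78, 5.18 and 7.70 CPM in the Ang II group. The highest Ang II heart was just under the lowest control heart, and controls varied widely (a log2 change of -0.95 with SE 0.31, unadjusted p = 0.0181, adjusted p = 0.548 by edgeR). Psmb9 overlaps Tap1 on the opposite strand. Tap2 (ENSMUSG00000024339; chromosome 17, 34203527 to 34216321, plus strand) gave 26.4, 24.8 and 24.2 against 16.1, 22.1 and 20.8 CPM (a log2 change of -0.35 with SE 0.16, adjusted p = 0.690), and its groups overlapped on FPKM.
Tapbp (ENSMUSG00000024308) had a different pattern. It gave 36.2, 13.3 and 15.9 CPM in the control group and 2.97, 33.2 and 26.9 CPM in the Ang II group, so both groups hold high and low hearts and the log2 change was -0.05 (SE 0.80). Without Ang II replicate 1 it was 0.47 and without control replicate 1 it was 0.53, and over 15 alternative fits the adjusted p was 0.682 to 0.999 (edgeR, DESeq2 and limma). Zbtb22 overlaps Tapbp on the same strand. Nlrc5 (ENSMUSG00000074151; chromosome 8, 94434356 to 94527272, plus strand), the class I co-activator, gave 8.19, 6.35 and 5.16 against 6.16, 5.75 and 5.72 CPM. Its Ang II hearts lay within the control range (a log2 change of -0.16 with SE 0.21, adjusted p = 0.867 by edgeR). The 2 co-activators thus had unequal values, -1.49 for Ciita and -0.16 for Nlrc5, and that difference was not tested.

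**Figure D2:**
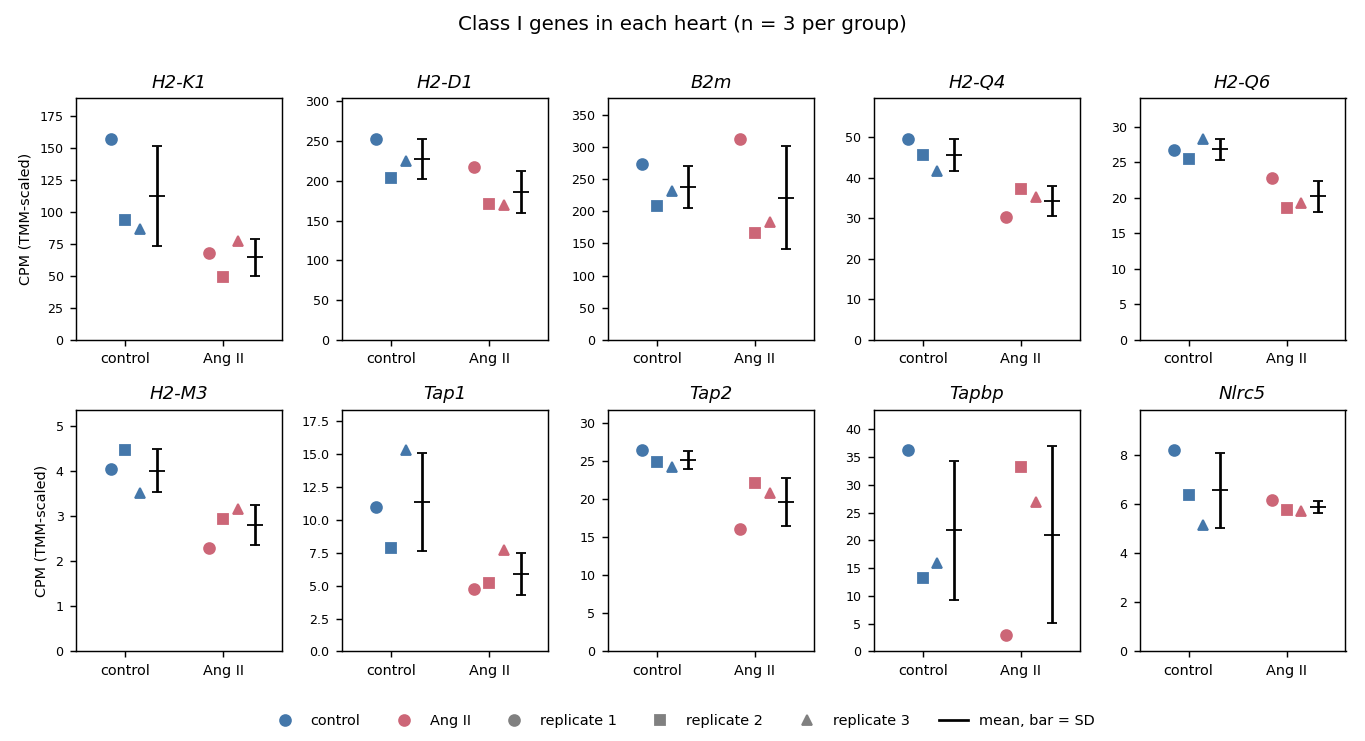
Level of 10 class I genes in each heart, in TMM-scaled CPM, with symbols, means and SD (n = 3) drawn as for class II. H2-K1, H2-Q4, H2-Q6, H2-M3, Tap1 and Tap2 show no overlap; B2m is highest and Tapbp lowest in Ang II replicate 1.

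**Figure D3:**
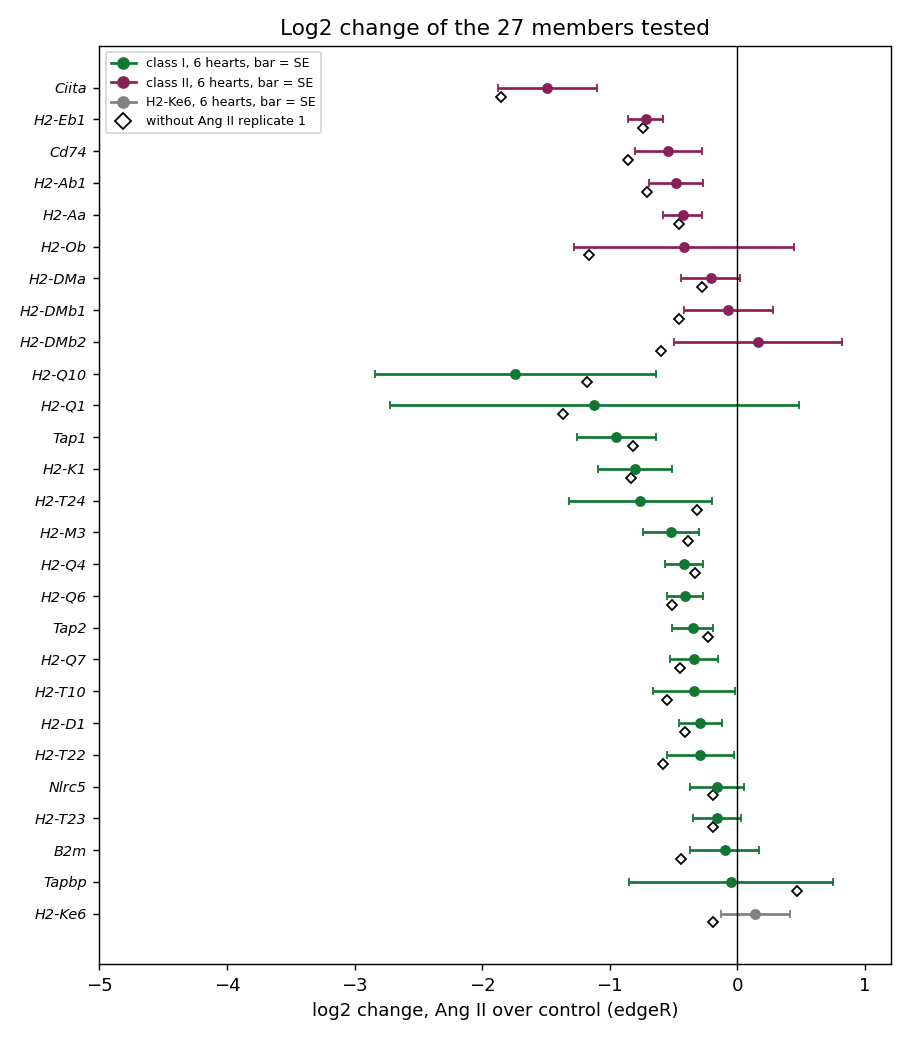
Log2 change, Ang II over control, of each tested member by edgeR with its SE (filled circles, all 6 hearts) and without Ang II replicate 1 (open diamonds). With 6 hearts 25 of 27 lie below 0; leaving out that library moves B2m, Cd74 and H2-Ab1 down, H2-DMb2 and H2-Ke6 below 0 and Tapbp above 0.

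The order of levels, compared per length as FPKM, was the same at the top in both groups. In control hearts B2m stood at 248 ± 12.2, H2-D1 at 79.4 ± 6.01, Cd74 at 45.3 ± 7.71 and H2-K1 at 33.5 ± 5.78 FPKM (SD, n = 3). H2-Ke6 apart, the next were H2-Q4 at 15.9 ± 2.32 and H2-Eb1 at 15.6 ± 2.46 FPKM, which did not differ beyond their spread. H2-Ab1 (12.7 ± 1.08), H2-Q6 (11.7 ± 1.96) and H2-Aa (10.9 ± 0.904) had overlapping ranges over the control hearts. Within each control heart, though, H2-Ab1 was above H2-Aa, by a factor of 1.15, 1.21 and 1.14. In Ang II hearts B2m stood at 233 ± 44.3, H2-D1 at 66.9 ± 1.65, Cd74 at 31.1 ± 6.18 and H2-K1 at 20.6 ± 5.71 FPKM. H2-Ke6 apart, H2-Q4 came next at 12.5 ± 3.07 FPKM. H2-Eb1 stood at 9.74 ± 1.81 FPKM, close to H2-Ab1 at 9.29 ± 0.828 and H2-Aa at 8.45 ± 1.03 FPKM.

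The sum of H2-Aa, H2-Ab1 and H2-Eb1 was 34.3, 41.2 and 42.3 FPKM in control and 25.7, 27.2 and 29.6 FPKM in Ang II hearts. The sum of H2-K1 and H2-D1 was 112, 117 and 110 FPKM in control and 82.9, 84.4 and 95.4 FPKM in Ang II hearts. For both sums every Ang II heart was below every control heart. That outcome was fixed in advance, because each gene in the sums already had no overlap on FPKM. Class II was thus 34.8% ± 3.83 of class I in control and 31.4% ± 0.677 in Ang II hearts (SD, n = 3), a difference smaller than the spread between controls. Within class II, H2-Eb1 was 1.27, 1.56 and 1.43 times H2-Aa in control and 1.13, 1.03 and 1.3 times in Ang II hearts, and these ranges overlap.

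**Figure D4:**
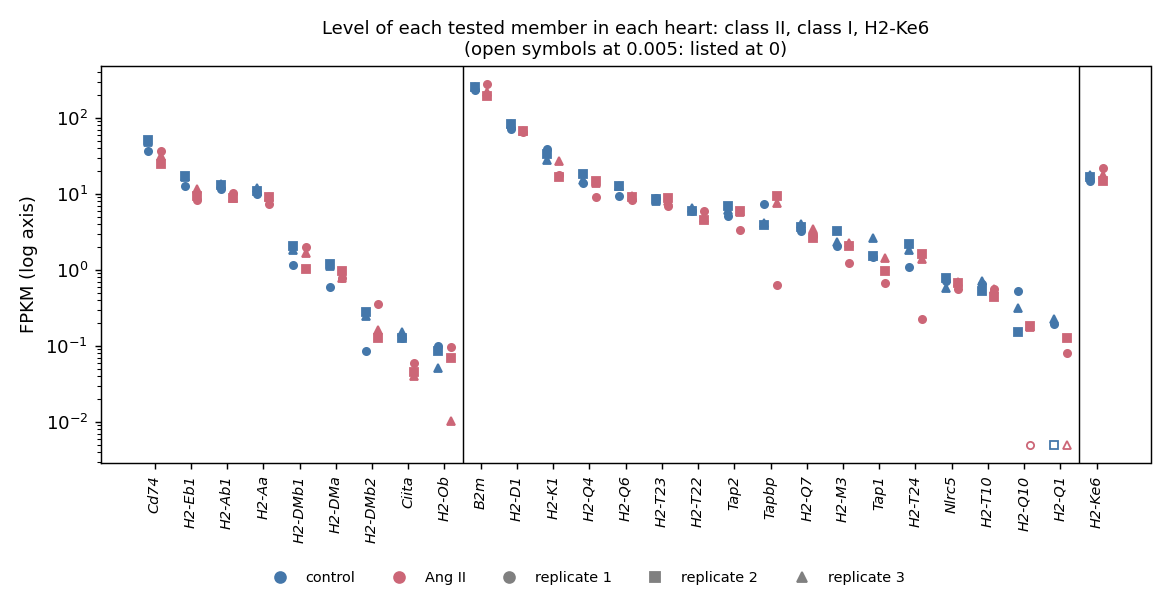
Deposited FPKM of each tested member in each heart on a log axis, class II at left, class I in the middle and H2-Ke6 at right, each ordered by its control mean. B2m, H2-D1, Cd74 and H2-K1 are the 4 highest genes of antigen presentation, and values listed at 0 are drawn as open symbols at the bottom.

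By heart, the 9 tested class II genes had median log2 deviations from the control mean of -0.05, -0.68 and -0.58 in Ang II replicates 1, 2 and 3, and of -0.06 to 0.06 in controls. The 17 tested class I genes had -0.23, -0.40 and -0.36 in Ang II hearts and -0.20 to 0.21 in controls. Control replicate 2 was therefore close to Ang II replicate 1 for class I, and Ang II replicate 1 lay within the control range for class II. Without Ang II replicate 1 the medians of the log2 changes were -0.61 for class II and -0.44 for class I. At an unadjusted p under 0.05, 13 of 29 members were then lower and 0 higher, against 7.6% and 7.75% of all genes tested. Log2 changes were below 0 for 27 of the 29, against 51.4% of all genes. By edgeR 0 members were called in that fit, where 129 of 17661 genes (0.73%) were, with 0.204% of all genes lower.

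H2-Ke6, the member outside antigen presentation, stood at 25.8 to 32.9 CPM in the control group and 24.0 to 46.5 CPM in the Ang II group (a log2 change of 0.14 with SE 0.27). The highest value was again in Ang II replicate 1, and 62.92% of its 50-base stretches also occur in the overlapping read-through gene Gm20427.

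The rest of the pathway, 42 genes in 5 lists, had 40 tested, of which edgeR and DESeq2 called 0. At an unadjusted p under 0.05 by edgeR, 0 were lower and 2 higher, against 3.94% and 3.57% of all genes tested, and 21 of 40 log2 changes were below 0, against 49.1%. Without Ang II replicate 1, 4 were lower and 5 higher, against 7.6% and 7.75%, with 23 of 40 below 0 and none called by edgeR. Immunoproteasome, trimming and chaperone genes of class I had 5 of 10 below 0, with a median of -0.11, and 9 of 10 with a median of -0.24 without Ang II replicate 1. Lowest in p were Tapbpl, a tapasin relative (6.39 ± 0.970 against 4.76 ± 0.627 CPM; log2 change -0.43, SE 0.20), and Pdia3, a disulfide isomerase of the loading complex (82.5 ± 8.59 against 67.0 ± 3.14 CPM; log2 change -0.30, SE 0.14). Proteases and other genes of class II peptide supply had 5 of 9 below 0, with a median of -0.03, which turned to 2 of 9 and 0.15 without that library. Ctsd, the lysosomal protease cathepsin D, stood at 520 ± 41.3 CPM in the control group and 709 ± 114 CPM in Ang II hearts (a log2 change of 0.45 with SE 0.18, edgeR adjusted p = 0.634), and the late-endosome tetraspanin Cd63 gave 45.1 ± 2.39 and 52.9 ± 0.877 CPM.

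Factors that bind the class II X and Y boxes had 5 of 7 log2 changes below 0, with a median of -0.29, and 0 at an unadjusted p under 0.05 by edgeR; without Ang II replicate 1 the median was -0.16, with 5 of 7 below 0 and 1 lower at that level. The Y box subunits Nfyc (28.2 ± 1.87 against 23.1 ± 1.44 CPM) and Nfya (12.2 ± 2.85 against 7.54 ± 3.14 CPM) were lowest in p. Interferon-γ signalling had 5 of 9 below 0, with a median of -0.01, or of -0.23 without that library, again with 5 of 9 below 0. Ifng itself was not tested, at 0.0562 CPM in Ang II replicate 3 and 0 in the other 5 hearts. The receptor-associated kinase Jak1 gave 65.0 ± 3.49 and 89.2 ± 12.4 CPM (a log2 change of 0.46 with SE 0.16, edgeR adjusted p = 0.583), while Irf1, a factor that acts on class I and Ciita promoters, gave 28.3 ± 2.64 and 21.7 ± 3.23 CPM (a log2 change of -0.39 with SE 0.17, adjusted p = 0.667). The co-stimulation list also holds the inhibitory ligands Cd274 (PD-L1) and Pdcd1lg2. It had 1 of 5 log2 changes below 0, with a median of 0.20 (2 of 5 and 0.06 without Ang II replicate 1). With all hearts the gene below 0 was Cd274, which gave 10.3 ± 0.898 and 8.20 ± 0.910 CPM. The 4 above 0 were the co-stimulatory genes Cd80, Cd86, Cd40 and Icosl. Icosl gave 8.35 ± 0.584 and 9.57 ± 1.17 CPM.

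Macrophage and monocyte markers summed to 139 to 212 FPKM in control and 146 to 263 FPKM in Ang II hearts, the highest in Ang II replicate 1, led by Lyz2 and C1qa. With all 6 hearts 7 of 12 had log2 changes below 0 (median -0.05), and without Ang II replicate 1 all 12 did (median -0.31). The pan-leukocyte gene Ptprc (CD45) stood at 4.88, 6.35 and 4.98 CPM in the control group and 3.82, 3.64 and 2.67 CPM in the Ang II group (a log2 change of -0.68 with SE 0.22, edgeR adjusted p = 0.558), but only 2 of the 5 pan-leukocyte markers were below 0, and 4 of 5 without that library. Dendritic cell markers summed to 2.34 to 4.04 and 2.95 to 3.07 FPKM, led by Zbtb46 and Clec9a, with 3 of 6 tested below 0 (median -0.09, or -0.17 without that library). B cell markers summed to 0.506 to 1.37 and 0.497 to 1.22 FPKM and T and NK cell markers to 0.232 to 0.421 and 0.325 to 0.568 FPKM, led by Cd79b and Cd79a and by Cd4 and Nkg7. Of the B cell markers 3 of 4 were below 0 (median -0.46), and 4 of 4 without Ang II replicate 1 (median -0.99); of the T and NK cell markers tested, 1 of 3 and 2 of 3.

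Endothelial cells carry class I and, in some vessels, class II molecules. Their markers summed to 97.8 to 139 FPKM in control and 80.9 to 104 FPKM in Ang II hearts, led by Cdh5 and Tie1, with 7 of 8 log2 changes below 0 and a median of -0.36. Without Ang II replicate 1 all 8 were below 0 (median -0.37). Red blood cell genes, led by Hbb-bs and Hba-a2, were below 0 in 5 of 5 (median -1.60), with sums of 1130 to 2010 FPKM in control and 603 to 639 FPKM in Ang II hearts. Fibroblast markers, led by Dcn and Lum, summed to 52.6 to 79.5 FPKM and 22.8 to 81.6 FPKM, with 4 of 5 below 0 (median -0.30), which turned to 2 of 5 (median 0.11) without Ang II replicate 1. Smooth muscle and pericyte markers, led by Rgs5 and Acta2, summed to 88.6 to 150 FPKM and 77.1 to 133 FPKM, with 3 of 4 below 0 (median -0.08), which turned to 1 of 4 (median 0.04). Cardiomyocyte markers, whose sums overlapped between groups, had 0 of 6 log2 changes below 0 (median 0.21). Without Ang II replicate 1 it was also 0 of 6 (median 0.25). Of 58 marker genes tested edgeR called none, and DESeq2 called 6, all lower, against 0.698% of all genes: Kdr (adjusted p = 0.00246) and Vwf (0.0145) of endothelial cells, and Hba-a1 (0.0062), Hba-a2 (0.00175), Hbb-bt (0.00289) and Alas2 (2.11e-05) of red blood cells. These 6 were named because DESeq2 called them, and the haemoglobin genes have near-identical copies that can share reads. Unadjusted p-values under 0.05 by edgeR fell on 4 endothelial, 5 red blood cell, 2 fibroblast, 1 macrophage and 1 pan-leukocyte gene, all lower, 13 of 58 against 3.94% of all genes. The part of these cell populations in the MHC values was not tested.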

How the data were processed

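Poly(A) RNA of 6 hearts (1 library each; the series text names 3 mice a group) was sequenced. Bowtie 0.12.2, HISAT2 2.0, StringTie 1.3.0 and mm8 are named, without roles, per the submitters' processing notes. The gene coordinates are those of GRCm38 in GENCODE M21 for 51957 of 55141 IDs found in both (94.2%), and for 39 of the 44 members; none are given for the other 5. The authors deposited FPKM, with 0.0001 standing for 0, and whole-number estimated counts; how these were counted, and whether by strand, is not given in the sources used here. Treating estimated counts as counts leaves out the error of the estimate.

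The main test was edgeR 4.0.16 (quasi-likelihood, TMM, filterByExpr, two-sided, Benjamini-Hochberg over 16759 genes, threshold 0.05) in R 4.3.3. DESeq2 1.42.0, and limma 3.58.1 on log2(FPKM + 0.5), were alternatives. SEs are the log2 change over the root of edgeR's F. CPM uses TMM-scaled library sizes, and deviations per heart use log2(CPM + 0.5). No libraries were duplicates (chi-square per degree of freedom within groups 34.1 to 482). On data simulated for this comparison (16214 genes), 1 of 100 genes with a 2-fold change, 66 of 100 with a 4-fold change and 4 of 16014 with none passed in edgeR.

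Members, lists (42 pathway and 64 marker genes) and motifs were chosen with earlier results of these data known. Full values are given for the classical genes, Cd74, Ciita, B2m, Nlrc5, Tap1, Tap2, Tapbp and members at an unadjusted p under 0.05 or called by DESeq2. Each pathway list names its 2 genes lowest in p, and marker lists their 2 highest in FPKM; Ptprc and the markers called by DESeq2 were named after their values were seen. Other settings tried were scaling, filters, pseudocount, tool, replicate block and each library left out; values without Ang II replicate 1 for the counts of non-overlapping members, and those counts on FPKM, were added after seeing the data.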

Additional observations from a re-analysis of the deposited data

How the results depend on the processing

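By edgeR 0 members were called in every alternative with that tool, and by limma 0; DESeq2 called 2. Members lower at an unadjusted p under 0.05, 8 with all 6 libraries, numbered 4 with total counts and no scaling factors, 2 by limma on log2(FPKM + 0.5), 2 on log2(FPKM + 0.1), and 3 to 13 when each library was left out: 13 without Ang II replicate 1, 3 without control replicate 1 or Ang II replicate 2, and 4 without control replicate 3 or Ang II replicate 3. Over all genes 6 were called, against 0 with no scaling factors, 9 with the lighter count filter, 276 by DESeq2, 4, 3 and 2 by limma, and 0 to 129 with a library left out, the most without Ang II replicate 1. The class I median log2 change was -0.26 by limma with no filter and -0.44 to -0.32 with a library left out; that of class II was -0.10 and -0.61 to -0.35 in the same fits, against -0.43 with all libraries in edgeR. Signs turned, always without a call, for Tapbp with no scaling factors (0.21) and with a library left out (-0.54 to 0.53), for B2m (-0.44 to 0.07) and for Nlrc5 (-0.31 to 0.03); the cause was not tested. The other 12 members given in full kept their sign in every fit that tested them. With the replicate number as a block, 0 members and 0 of all genes were called, against 6 without it, and 26 of 27 members were below 0; deviations of same-numbered libraries correlated by 0.0777, 0.112 and -0.0372, and the libraries numbered 1 and 2, but not those numbered 3, correlated best with their own number, a hint from the data only; not every correlation was over 0.1, so the numbers were not taken to pair the hearts. At 3 hearts a group, the simulated calls show that 2-fold changes are rarely detectable, and most member changes here are smaller.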
